A study of Mus musculus with 6 samples.

Results

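The genes described here are those that rise when naive mouse embryonic stem cells leave the ground state, the formative and primed epiblast genes. The list has 8 names, which resolve to 7 of the 21887 protein-coding genes considered, because Oct6 is a synonym of Pou3f1. Around each gene, all SALL4 intervals were taken that touch the gene body or the 50 kb on either side. Of 55058 and 48295 intervals in wild-type replicates 1 and 2, 31 and 26 were members by that rule. The gene names were chosen with earlier results of these data known.

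SALL4 was mapped by CUT&RUN. In that assay cells are permeabilised, an antibody brings a nuclease to its target, and the DNA that the nuclease cuts free is sequenced. The cells were mouse embryonic stem cells in 2i medium with LIF, which hold them in the naive state. The group called wild type by its titles is a Sall4F/F line, whose Sall4 gene is floxed and intact, and the other group is a Sall4-/- line. The labels name 1 cell line for each genotype and no other allele or agent, and each line gave 2 SALL4 libraries. The 2 IgG libraries, 1 per line, were not analysed here. Nothing in the labels says that the libraries came from separate cultures, so any spread between them may be technical.

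In the embryo, epiblast cells pass from a naive state through a formative state, in which they become able to respond to signals for the germ layers and germ line, to a primed state. The transcription factor Otx2 is known as a driver of the first step. Pou3f1 (also called Oct6), Zic2 and Foxd3 are transcription factors, and Fgf5 is a secreted growth factor long used to mark this transition. Zic5 is a zinc-finger gene that neighbours Zic2, and Sox4 is an HMG-box factor found in many progenitor cells. SALL4 is a zinc-finger protein of pluripotent cells whose last zinc-finger cluster binds AT-rich DNA.

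The values of this study are peak lists, so no expression of these genes was measured, and the stem cell identity could not be checked against marker genes. The body of Sall4 plus 50 kb held 9 and 8 intervals in wild-type replicates 1 and 2 and 0 in each knockout list, which checks the labels little, since the knockout lists hold 34 and 39 intervals in all. The lists give no read totals. The fragments stacked at each summit were recovered from the deposited values for 100% of the intervals, with a median of 9 in each wild-type list.

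A consensus region below is one that was found in both wild-type lists and overlaps no knockout interval. There were 37997 such regions in all and 21 at the member genes. Fold enrichment is the deposited ratio of fragments at the summit to those the peak caller took as background, with 1 added to each. It was read within each list.

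The 7 genes ranged from many SALL4 regions to none. Zic5 had 11 consensus regions, Otx2 had 9, Zic2 had 5 and Sox4 had 1, while Fgf5, Pou3f1 and Foxd3 had 0. Thus 4 of 7 members had a region, against 68.7% of all coding genes in windows made the same way. The 4 are not separate loci, since all 5 regions of Zic2 are also among the 11 of Zic5. The other 3 members had no interval in either wild-type list, as did 21.4% of coding genes. A list of 7 genes is too small to set either count apart from the background, and no test over the list was made.

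**Figure D1:**
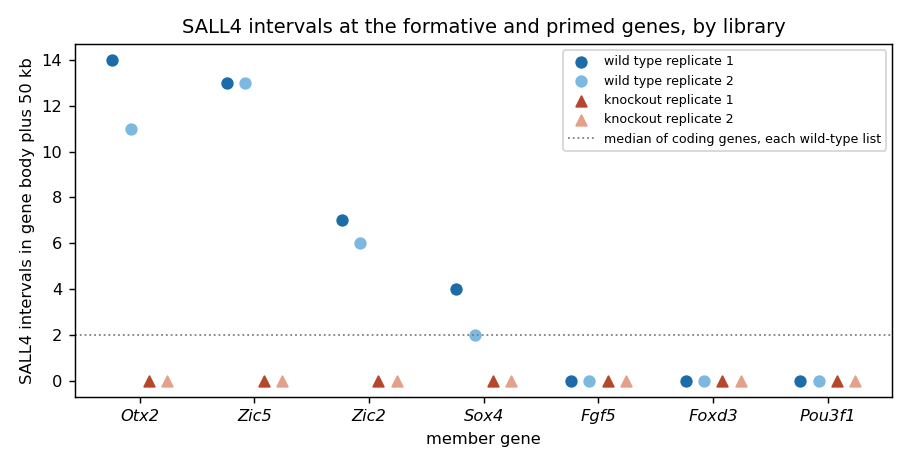
Number of SALL4 intervals in the gene body plus 50 kb (vertical axis) for each member gene (horizontal axis), with 1 point for each of the 4 libraries and a dotted line at the coding-gene median of 2, which is the same in both wild-type lists. Otx2, Zic5 and Zic2 lie above the line in both wild-type libraries, Fgf5, Foxd3 and Pou3f1 are at 0, and the knockout points are all at 0.

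By library, the Otx2 window held 14 and 11 intervals in wild-type replicates 1 and 2. The Zic5 window held 13 and 13, the Zic2 window 7 and 6, and the Sox4 window 4 and 2. These 4 genes thus had an interval in each wild-type list, against 75.9% of coding genes for replicate 1 and 73.3% for replicate 2. The knockout lists held 0 intervals at every member.

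Counted once, the members' intervals numbered 28.5 ± 3.54 (SD, n = 2) in wild type and 0 in both knockout libraries. With 1 added to each count, the difference was 4.88 on the log2 scale, against a spread of 0.173 (SD, log2) between the wild-type libraries. Exact permutation of the library labels, two-sided, gave p = 0.333, which is the lowest value possible with 2 against 2. The knockout lists hold 34 and 39 intervals in the whole genome. In each list taken alone only 0.00914% of coding genes had one, so a 0 is what nearly every coding gene shows there.

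Promoter sequence was at hand for 5 of the 7 genes, in RefSeq windows of 300 bases (GRCm38.p6) from 250 before to 50 after a start. Of the 8 such windows, 4 belong to alternative starts of Otx2. Those touched by an interval are shown first, and those of Fgf5 and Foxd3 follow for contrast. Capitals mark the bases inside an interval, for Otx2 the stretch common to both wild-type lists and for Sox4 the interval of replicate 1.
Otx2, chr14:48662685-48662984, minus strand: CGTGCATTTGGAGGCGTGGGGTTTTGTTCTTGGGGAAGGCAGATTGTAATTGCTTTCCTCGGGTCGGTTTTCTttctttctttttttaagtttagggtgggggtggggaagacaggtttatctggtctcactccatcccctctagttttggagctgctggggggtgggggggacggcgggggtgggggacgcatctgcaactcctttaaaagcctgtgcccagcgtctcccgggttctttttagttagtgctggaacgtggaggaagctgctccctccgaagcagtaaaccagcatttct
Sox4, chr13:28953650-28953949, minus strand: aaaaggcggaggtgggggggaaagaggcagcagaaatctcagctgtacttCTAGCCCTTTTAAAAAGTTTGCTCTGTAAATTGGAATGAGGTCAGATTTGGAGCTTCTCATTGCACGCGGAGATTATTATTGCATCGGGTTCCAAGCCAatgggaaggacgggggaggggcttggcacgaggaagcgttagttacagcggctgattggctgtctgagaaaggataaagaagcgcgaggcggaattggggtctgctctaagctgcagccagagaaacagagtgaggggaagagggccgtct
Fgf5, chr5:98253934-98254233, plus strand: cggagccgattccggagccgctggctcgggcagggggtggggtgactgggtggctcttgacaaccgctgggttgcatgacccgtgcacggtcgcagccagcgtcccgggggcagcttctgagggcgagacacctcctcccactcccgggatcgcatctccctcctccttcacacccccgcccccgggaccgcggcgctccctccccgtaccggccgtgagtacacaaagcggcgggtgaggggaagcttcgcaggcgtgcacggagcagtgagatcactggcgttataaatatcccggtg
Foxd3, chr4:99656049-99656348, plus strand: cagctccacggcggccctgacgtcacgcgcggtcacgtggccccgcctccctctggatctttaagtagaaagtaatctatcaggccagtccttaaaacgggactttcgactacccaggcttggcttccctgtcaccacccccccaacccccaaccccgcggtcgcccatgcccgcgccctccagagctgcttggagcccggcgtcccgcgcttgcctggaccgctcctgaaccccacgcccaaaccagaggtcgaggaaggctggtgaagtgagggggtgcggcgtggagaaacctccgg

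The Otx2 window is that of the innermost of its 4 starts. Its first 73 bases lie in the SALL4 interval of both lists and are 49.3% A+T, while the interval runs on upstream of the window. The summits of the lists lie outside the window, so its capitals show only an edge of the interval. In the Sox4 window, 99 bases are covered, in replicate 1 alone, and are 57.6% A+T. The whole windows of Otx2 and Sox4 were 46.3% and 48.0% A+T, and those of Fgf5 and Foxd3, where no SALL4 interval was called, were 31.7% and 34.3%. The Zic5 window had 37.3% A+T and no interval either. The 3 other Otx2 windows, also with no interval in any list, were richer in A+T than both touched windows, at 49.0%, 52.3% and 58.3%. Over all 32851 windows the median was 47.3%, with quartiles of 38.3% and 54.3%, so the Fgf5, Foxd3 and Zic5 windows were below the lower quartile.

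The letters AATATT, which read the same on both strands, were searched as an AT-rich word of the kind SALL4 binds. They occurred in 0 of the 8 member windows, in 6.81% of all windows, and in 5.37% of the 1025 windows that touch a consensus region. The longer words TAATATT and AATATTA, each the other's reverse complement and both containing AATATT, were found in 3.01% of all windows. Nothing about binding can be read from an absent word, and the sequence of the regions outside promoters was not used here.

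Otx2 (gene ID 18424, minus strand, chr14:48656781-48667644) was the member with a region inside its own body. A consensus region lies in the body of 27.6% of coding genes. That region, chr14:48662911-48663519, had fold enrichments of 15.2 in replicate 1 and 14.6 in replicate 2, a mean of 14.9 ± 0.465 (SD, n = 2). It rested on 29 and 28 fragments, and the summits of the lists lay 7 bp apart. It ranked 4514 of 55058 and 4083 of 48295, within the top 8.20% and 8.45% of its lists. Its summit lay 0.348 kb from the innermost start. The gene table gives no exons, so whether it is exonic or intronic was not used here.

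Past the end of Otx2 lay a group of 4 further regions within 4.01 kb of the gene. The strongest, chr14:48654365-48654867, had fold enrichments of 14.2 and 10.6 on 27 and 20 fragments. The nearest, chr14:48656368-48656609, began 0.172 kb from the gene and was weak, at 4.44 and 4.12 on 6 fragments in each list. The other two had fold enrichments of 8.25 and 6.88, and of 4.57 and 6.04. All 4 lie in no annotated gene.

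Upstream of Otx2, the 4 remaining regions lay 33.8 to 49.1 kb from the gene, inside the long non-coding RNA gene Otx2os1. The strongest, chr14:48707509-48707904, had the highest fold enrichment at Otx2 in replicate 1, at 19.6, but 13.3 in replicate 2, on 28 and 19 fragments. Its mean of 16.5 ± 4.43 (SD, n = 2) therefore does not stand apart from that of the region inside the gene, whose values both lie between. The other 3 had fold enrichments of 10.2 and 8.90, of 6.10 and 8.16, and of 8.95 and 8.67. Between the start of Otx2 and this upstream group, no region was called in both lists over 33.3 kb. Replicate 1 alone had 1 weak interval there.

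**Figure D2:**
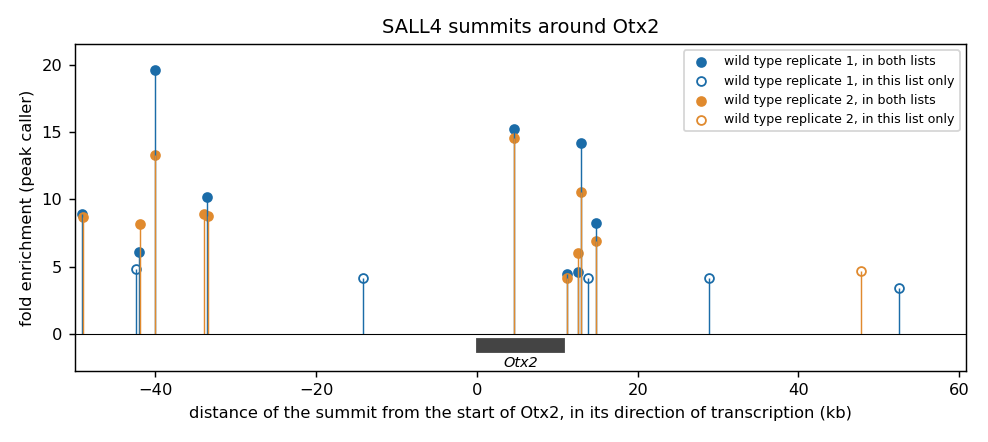
Fold enrichment at SALL4 summits (vertical axis) against distance from the outermost start of Otx2 in the direction of its transcription (horizontal axis, kb), for both wild-type replicates, with filled points for intervals found in both lists and open points for the rest. The filled points form an upstream group, a point inside the gene (bar) and a group just past its end, and the open points all lie below 5.

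Otx2 had 0.812 consensus regions per 10 kb of window, a density reached by 2.65% of coding genes, and 7.18% had as many regions. The median coding gene had 0.0970 per 10 kb. In replicate 1, 5 of the 14 Otx2 intervals were not in replicate 2, and in replicate 2 1 of 11 was not in replicate 1. The unshared ones had fold enrichments of at most 4.82.

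Zic5 (gene ID 65100, minus strand, chr14:122459160-122465658) and Zic2 (gene ID 22772, chr14:122475384-122480328) are separated by 9725 bases, so their windows share sequence. Between them the windows held 11 consensus regions over 78.6 kb. The Zic5 window held all 11 and the Zic2 window 5 of them. At 1.03 regions per 10 kb, the Zic5 window had a density reached by 1.16% of coding genes. Zic2 had 0.476 per 10 kb, reached by 10.2%. At least as many regions as Zic5 were found at 4.44% of coding genes, and at least as many as Zic2 at 19.7%. Neither gene had a region in its body.

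The strongest region of all members was chr14:122416089-122416888, 42.6 kb past the end of Zic5 and inside the long non-coding RNA gene Gm5089. Its fold enrichments were 38.9 and 35.3 in replicates 1 and 2, a mean of 37.1 ± 2.53 (SD, n = 2), on 64 and 59 fragments. It ranked 46 of 55058 and 67 of 48295, within the top 0.0835% and 0.139% of the lists. The summits called in the separate libraries lay 1 bp apart. Both values were above every other value at the members, the next mean being 25.5 ± 2.32 (SD, n = 2).

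That next region, chr14:122433829-122434428, lies in Gm5089 as well, and its edge is 24.7 kb past the end of Zic5. It had fold enrichments of 23.9 and 27.2 on 46 and 53 fragments. The third, chr14:122467377-122468375, lies in the stretch between Zic5 and Zic2 and in no annotated gene, with its summit 2.32 kb upstream of the Zic5 start. It had fold enrichments of 26.2 and 22.4 on 37 and 32 fragments, with summits 1 bp apart, and it is the best-ranked region of the Zic2 window. The means of 25.5 ± 2.32 and 24.3 ± 2.64 (SD, n = 2 each) were not resolved from each other, since replicate 1 ranked one higher and replicate 2 the other. Among the 21 member regions, these 3 had a fold enrichment of at least 20 in both lists, as did 3.69% of all consensus regions.

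Within 1 kb of Zic2 lay the region chr14:122480440-122480962, which began 0.112 kb beyond the gene's higher-coordinate end and touches the long non-coding RNA gene Gm33769. It had 20 and 22 fragments at the summit, but a fold enrichment of only 7.15 and 7.73. The recovered background there was 1.94 and 1.98 fragments, against 0.452 and 0.471 at the region between the genes. Those lower values recur at intervals of Otx2 and Sox4 in the same lists, so they are not particular to this locus.

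The other 6 regions past the end of Zic5 lay in Gm5089 at 26.9 to 47.6 kb, with mean fold enrichments from 4.55 to 15.0. The widest member region, 1061 bp at chr14:122432136-122433196, is among them and had 3 summits in each list. The last region, chr14:122489861-122490096, lies in the coding gene Pcca and had the lowest mean fold enrichment of the locus, at 3.44 and 4.08 on 4 and 5 fragments. In replicate 2 alone the region chr14:122413288-122413486 was lower, at 4.02.

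**Figure D3:**
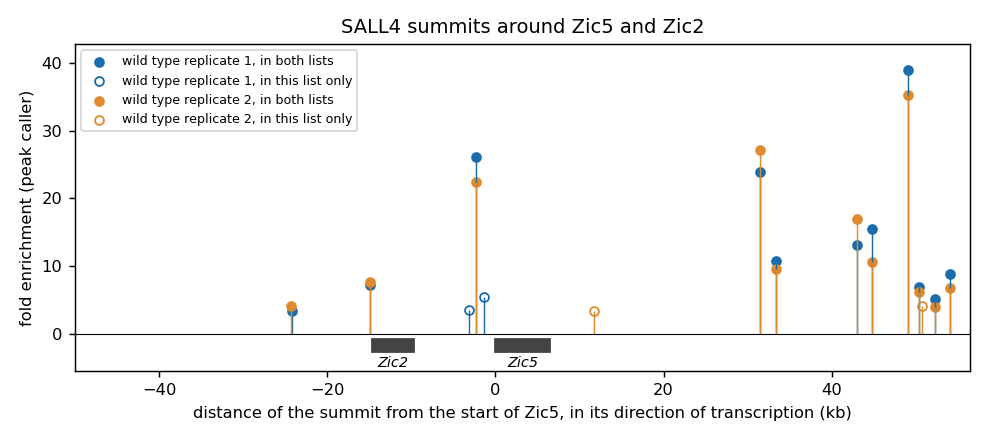
Fold enrichment at SALL4 summits (vertical axis) against distance from the start of Zic5 in the direction of its transcription (horizontal axis, kb), for both wild-type replicates, with bars for Zic5 and Zic2 and open points for intervals found in 1 list. The tallest points, at 38.9 and 35.3, lie beyond the end of Zic5, and a further pair at 26.2 and 22.4 stands between the genes.

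Sox4 (gene ID 20677, minus strand, chr13:28948919-28953699) had a single consensus region, chr13:28988642-28989252, 35.1 kb upstream and in no annotated gene. Its fold enrichments were 11.7 in replicate 1 and 16.7 in replicate 2, a mean of 14.2 ± 3.53 (SD, n = 2), on 22 and 24 fragments. At least 1 region was found at 68.7% of coding genes, and 51.6% reached the Sox4 density of 0.0954 per 10 kb. The interval at the Sox4 promoter printed above, chr13:28953801-28953899, was called in replicate 1 alone. It had a fold enrichment of 4.44 on 6 fragments, and no interval of replicate 2 lay closer to the gene than 35.0 kb. It was called in 1 library and not in the other, so the presence of a site there is not resolved.

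Fgf5 (gene ID 14176, plus strand, chr5:98254184-98277033) had its nearest consensus regions 60.2 kb before and 162 kb after the gene. The stretch free of consensus regions around it was 245 kb long, and 31.6% of coding genes sat in a stretch at least as long. As far from a region as Fgf5 were 27.6% of coding genes.

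Pou3f1 (gene ID 18991, chr4:124657646-124660655) lay 165 kb from the nearest consensus region, in a free stretch of 465 kb. At least as far were 10.2% of coding genes, and 13.99% had a stretch at least as long. Foxd3 (gene ID 15221, plus strand, chr4:99656299-99658671) lay farthest of the members, 407 kb from the nearest region, in a free stretch of 848 kb. Only 4.05% of coding genes were at least as far, and 5.24% had a stretch at least as long. Replicate 2 had an interval 77.3 kb upstream of Foxd3 that replicate 1 did not have, and in replicate 1 the nearest lay at 397 kb.

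The genes also differed in wider windows. In the gene body plus 100 kb, Otx2, Zic2 and Zic5 had 15, 14 and 16 consensus regions, Fgf5 and Sox4 had 1 each and Pou3f1 and Foxd3 had 0, against a coding median of 3. In the gene body plus 500 kb, a width chosen after seeing the data, Fgf5, Pou3f1 and Foxd3 had 3, 5 and 6, all below the lower coding quartile of 9. At that width Otx2 had 36 and both Zic genes, whose windows largely overlap, 54, above the upper quartile of 25, and Sox4 had 13.

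The agreement of the replicates at the members was close to that of the whole lists. Of 31 member intervals in replicate 1, 21 were found in replicate 2, which is 67.7% (exact 95% binomial interval 48.6 to 83.3). The share over the whole list was 70.4%. Of 26 in replicate 2, 22 were found in replicate 1, which is 84.6% (65.1 to 95.6), against 79.3%. These intervals cover counting error only, and the member intervals come from few loci and are not independent. Shared member intervals had median pileups of 18 and 14 fragments, and unshared ones 6 and 5.5.

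Across the 21 member regions, Spearman's rho of the fold enrichments was 0.938 and Pearson's r on the log2 scale was 0.937. Over all consensus regions the values were 0.771 and 0.834. These are descriptions across regions, which share libraries and, here, 3 loci. Replicate 2 was lower than replicate 1 at the median region, by a log2 ratio of -0.14 at the members and of -0.13 over all regions. Summits of the lists lay within 100 bp of each other at 19 of 21 member regions (90.5%), near the 84.8% of all consensus regions.

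**Figure D4:**
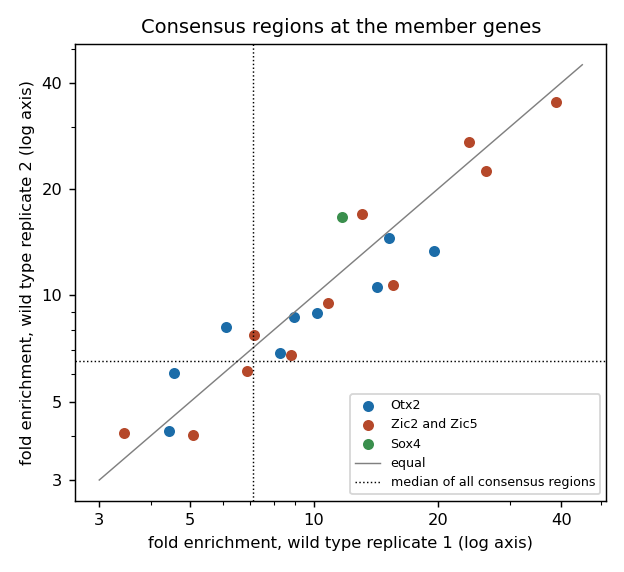
Fold enrichment of the 21 member consensus regions in wild-type replicate 1 (horizontal, log axis) and replicate 2 (vertical, log axis), coloured by locus, with the line of equality and dotted medians of all consensus regions. Points follow the line, the 3 highest belong to the Zic locus, and most points lie above both dotted medians of 7.11 and 6.54.

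The member regions were also set beside all consensus regions in strength and width. Their median fold enrichments were 10.2 and 8.90, against 7.11 and 6.54 over all, and 9 of 21 reached 10 in both lists (42.9%), against 21.2%. Of the 21 regions, 11 lie at Zic2 and Zic5, with medians of 10.8 and 9.52. Another 9 lie at Otx2, with medians of 8.95 and 8.67, so these values describe few loci. The median width of the member regions was 414 bp, against 327 bp over all. The median summit lay 33.8 kb from the nearer end of its member gene.

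Over the 7 members the median density was 0.0954 consensus regions per 10 kb, close to the 0.0970 of all coding genes. That median is the value of Sox4, and it moves with the list used. In the list of replicate 1 alone, with replicate 2 left out, it was 0.382 against a coding median of 0.175. In replicate 2 alone it was 0.191 against 0.148. In the gene body plus 100 kb it was 0.0488, below the coding median of 0.131, and in the gene body plus 10 kb both were 0. At a −log10 q of at least 10, or a fold enrichment of at least 10, it stayed 0.0954 while the coding median was 0.

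Further lists were set beside the members, chosen like them with earlier results known. Of 25 other genes of the formative and primed states, 23 had a consensus region, with a median of 4 regions and 0.290 per 10 kb, beside 68.7% of all coding genes with a region. Etv5, an ETS factor downstream of FGF signalling, was the densest at 1.33 per 10 kb with 21 regions. Sox3, an HMG-box factor on X, and Tead2, a factor of the Hippo pathway, had 0. Of 15 genes of the naive state, all 15 had a region, with a median of 8 regions and 0.613 per 10 kb. Klf5, a Kruppel-like factor, was the densest of these at 1.74 per 10 kb with 20 regions, and Tcl1, a cofactor of AKT kinases, the sparsest at 0.189 with 2. The median coding gene had 1 region. Windows of neighbours such as Dppa3 and Nanog, or Lefty1 and Lefty2, share sequence, so the genes of a list are not all separate loci. No test of the difference between lists was made.

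**Figure D5:**
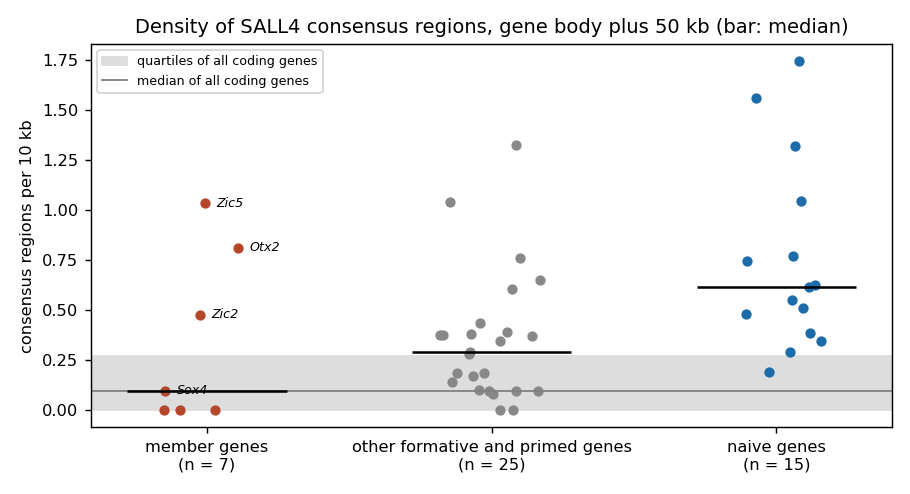
Consensus regions per 10 kb in the gene body plus 50 kb (vertical axis) for the 7 member genes, 25 other formative and primed genes and 15 naive genes, with 1 point a gene, a black bar at each list's median and a grey band for the quartiles of all coding genes. Zic5, Otx2 and Zic2 lie above the band, Sox4 near the coding median and 3 members at 0, and the medians of the lists are 0.0954, 0.290 and 0.613.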

How the data were processed

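Per the submitters' processing notes, Trim Galore 0.6.0, cutadapt 1.18, FastQC 0.11.8, BWA 0.7.17 and MACS2 2.1.1.20160309 were used with GRCm38 (mm10), and their settings are not given in the sources used here. The authors deposited 1 narrowPeak list for each of 4 SALL4 libraries, not pooled. Each line of the deposited lists holds a fold enrichment, which is a ratio of summit to local background, with the −log10 p-value and −log10 q-value of that summit. The score deposited beside them is 10 times the latter, cut to a whole number. In the fold enrichment, 1 is added to the summit and to the background before the ratio is taken. Summit offsets are in bp.

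Overlapping lines of a list were merged and the highest fold enrichment kept. Intervals were joined to the RefSeq GRCm38.p6 gene table at an overlap of at least 1 bp with the gene body plus 50 kb. That table holds no exons, and strand was taken from the promoter table where it lists the gene. Summit pileups were recovered from fold enrichment and p-value with a pseudocount of 1 and a tolerance of 0.0001 in −log10 p. Depth per library is not in the lists. Recovery, consensus and counting were tested on simulated data.

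The members and lists were chosen with earlier results of these data known. Named were all members, the best-ranked region of each window by the worse rank of both lists, each region in or within 1 kb of a member, and the densest and sparsest genes of the other lists. The remaining regions were named with their values in view. As alternatives, the analysis used stricter thresholds, window widths, overlap rules and each replicate left out. The planned search for AATATT around summits was replaced by one in promoters, since no genome sequence was used here. Python 3.11.15, numpy 2.4.6, scipy 1.17.1, pandas 2.3.3 and matplotlib 3.10.9 were used.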

Additional observations from a re-analysis of the deposited data

How the results depend on the processing

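The log2 difference between wild-type and knockout intervals at the members ranged from 3.45 to 5.47 over the 10 alternatives run. Every knockout count was 0, so its direction could not change and says nothing of stability. With the replicate number as a block, it was 4.88. The exact test by flipping signs then gave p = 0.5, which is as low as 2 pairs can go, and whether same-numbered libraries pair was not tested. The 4 members with a region stayed 4 at the stricter thresholds, under both overlap rules and with each replicate left out. They were 3 within 10 kb, 5 within 100 kb and 7 within 500 kb, where 42.1%, 82.2% and 96.5% of coding genes had one. The 21 regions were 13 at a −log10 q of at least 10, 9 at a fold enrichment of at least 10, 8 within 10 kb, 33 within 100 kb, 117 within 500 kb and 26 when shared windows count for each gene. At those stricter thresholds 39.5% and 31% of coding genes had a region. The mean share found in the other replicate, 76.2%, was 93.3% and 90.9% at these thresholds, which keep fewer weak intervals by construction. It was lower, 67.2%, both where overlaps had to cover 50% of each interval and where summits had to lie within 100 bp, and 19 regions were left under each rule. When one replicate was left out, the regions numbered 21 to 31, the median density ranged from 0.0954 to 0.382 and the median distance of summits from the gene from 26.9 to 34.5 kb. The share in the other replicate and the correlation have no value with a wild-type replicate left out. Spearman's rho ranged from 0.921 to 0.945. Among coding genes within 1.5 times a member's length the median density was 0.0943. The alternatives for letters around summits were not run. Summits with 4 to 6 fragments limit what can be said of the weakest sites.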

Other observations

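Among the other formative and primed genes, 2 members of the TCF family were singled out after their values were seen. Tcf7l1, a repressor downstream of WNT signalling, had 20 consensus regions in a long window, at 0.761 per 10 kb, close to the 0.812 of Otx2. Lef1, an activator of the same factor family, had 13 regions at 0.607 per 10 kb.

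Over all promoter windows, 3.12% touched a consensus region. Their median A+T content was 47.7%, against 47.3% in the rest, and AATATT was found in 5.37% against 6.86%.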
